A study of Mus musculus with 8 samples.

Results

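The 10 genes described here are Kit ligand (Kitl), its receptor gene Kit, and 8 other genes that melanocytes use, Ednrb, Sox10, Mitf, Dct, Tyr, Tyrp1, Pmel and Mlana. They were taken by symbol from a list that was chosen with earlier results of these data known. All 10 were found among the 23146 genes of the count files and passed the filter on low counts. The series sequenced RNA from mouse embryonic epidermis in 8 libraries, 2 in each of 4 groups. These are control and knockout embryos at the embryonic stages E15.5 and E17.5. The series title gives the aim as learning what Nir (Noc2l) does in the epidermis during development. The knockout embryos carry floxed Nir (Noc2l) alleles and Krt14-Cre, so that Cre recombinase is made where the keratin 14 promoter is active, in basal keratinocytes. The controls are floxed for the same gene, and their Cre status is not stated in the labels. In all groups the epidermis had been separated from the dermis.

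Melanocytes are pigment cells that arise from the neural crest, migrate through the dermis as melanoblasts and enter the epidermis and hair follicles before birth. Kit ligand, made by keratinocytes and by cells of the dermis, signals through the receptor tyrosine kinase Kit and is needed for melanoblasts to survive and to move, and the endothelin receptor Ednrb acts on the same cells. The transcription factor Sox10 drives Mitf, and Mitf in turn drives the genes of pigment synthesis, among them the enzymes Tyr, Tyrp1 and Dct and the melanosome proteins Pmel and Mlana. Mitf binds a short sequence called the M-box, TCATGTG, near the start sites of several of these genes.

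The start-site regions of the 3 pigment enzyme genes are shown here because all 3 hold the M-box while their RNA differed widely in its response to the knockout. Windows from 250 bases before to 50 bases after the start (RefSeq, GRCm38.p6) were found for 7 of the 10 genes, and Sox10, Pmel and Mlana had no entry. The M-box, searched on both strands as TCATGTG, was in the windows of Tyrp1, Tyr and Dct and in none of those of Kit, Kitl, Ednrb and Mitf. It was in 3.8% of all 32851 windows of this length. It begins 47 bases before the start of Tyrp1, 22 before that of Tyr and 151 before that of Dct, whose window holds another match 232 bases before the start on the opposite strand. These distances are from the start site on which each window was built. For Tyrp1 the annotated gene begins farther upstream, at 80834123, so its M-box lies inside the gene's span. The annotated start of Kitl, at 100015615, also lies before the start site of its window. That of Mitf, at 97807002, lies before the start sites of all its windows. Ednrb, on the minus strand, is annotated to begin at 103844508, outside its window (103843652 to 103843951). The lack of an M-box in the Ednrb window therefore does not cover that start. The shorter E-box CATGTG, which every M-box contains, was in 14.2% of windows. Each sequence is written 5′ to 3′ on the strand of its gene, with the M-box in capitals (as CACATGA where it lies on the opposite strand). Tyrp1 is at chr4:80833963-80834262 (plus strand), Tyr at chr7:87493463-87493762 (minus strand) and Dct at chr14:118052197-118052496 (minus strand).
Tyrp1: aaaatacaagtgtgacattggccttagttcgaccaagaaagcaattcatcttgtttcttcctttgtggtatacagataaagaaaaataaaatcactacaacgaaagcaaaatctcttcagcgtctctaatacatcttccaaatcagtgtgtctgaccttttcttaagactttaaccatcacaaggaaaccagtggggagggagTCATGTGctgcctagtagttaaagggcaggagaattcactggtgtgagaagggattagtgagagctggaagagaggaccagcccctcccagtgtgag
Tyr: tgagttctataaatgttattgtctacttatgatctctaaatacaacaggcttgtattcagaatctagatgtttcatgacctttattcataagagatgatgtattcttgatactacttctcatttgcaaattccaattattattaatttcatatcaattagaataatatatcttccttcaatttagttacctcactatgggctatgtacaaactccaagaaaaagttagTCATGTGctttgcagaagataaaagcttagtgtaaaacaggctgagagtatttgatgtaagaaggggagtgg
Dct: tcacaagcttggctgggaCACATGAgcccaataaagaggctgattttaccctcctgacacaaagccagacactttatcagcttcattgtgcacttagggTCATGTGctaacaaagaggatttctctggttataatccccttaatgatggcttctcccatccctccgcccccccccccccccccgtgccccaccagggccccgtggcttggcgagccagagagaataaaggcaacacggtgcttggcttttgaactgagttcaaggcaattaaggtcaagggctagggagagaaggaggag
A match describes the letters of the window and is no evidence of binding in these samples.

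Values are levels in CPM (counts-per-million of the library's gene counts) after TMM scaling (trimmed means of the log ratios between libraries), and tests are edgeR quasi-likelihood tests with Benjamini-Hochberg adjusted p-values over all 16341 genes tested. Fold changes are given on the log2 scale with their standard error (SE). Gene counts summed to between 25223874 and 28892685 per library, and each of the 10 genes had at least 60 counts in every library. The targeted gene Noc2l stood at 97.4 to 121 CPM in controls and 85.4 to 95.7 CPM in knockouts, and its change passed the test at E17.5 (-0.39 ± 0.10, adjusted p = 0.0062) and not at E15.5 (-0.12 ± 0.10, adjusted p = 0.34). Which exons the floxed allele loses is not stated in the labels, so this level is no check of the genotypes. The tissue label was checked against keratins: Krt1 and Krt10, of the suprabasal layers, stood at 17500 to 39900 CPM in controls and at 259 to 2720 CPM in knockouts. All 9 basal keratinocyte markers fell in the knockout at both stages, while all 10 dermal fibroblast markers rose at E15.5 and 9 of 10 at E17.5. Of all genes tested, 22.3% fell and 23.2% rose at E15.5, and 26.7% fell and 26.7% rose at E17.5. The summed level of the fibroblast markers was already 27200 to 33300 CPM in controls, so RNA of these genes was present in the control epidermis too. None of the markers in the lists of other cell types was at 0 in every library. In bulk RNA, a change in the number of cells of a type and a change in RNA per cell cannot be told apart.

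At E15.5 the melanocyte genes were higher in knockout epidermis, by very unequal amounts. Of the 10 genes 9 rose and 0 fell, where 23.2% of all genes tested rose, 22.3% fell and 45.5% changed in either direction. Their median log2 fold change was 0.78, against -0.005 for all genes. Tyrp1 rose 10.3-fold and Mlana 5.01-fold, Ednrb rose 2.31-fold, and Kit, Kitl, Mitf, Sox10, Dct and Pmel rose between 1.53-fold and 1.86-fold. Tyr did not pass the test. At E17.5, 5 of the 10 rose and 0 fell, where 26.7% of all genes rose, 26.7% fell and 53.4% changed. The risen genes were Tyrp1, Ednrb, Kitl, Kit and Sox10, and the median over the 10 was 0.55, against -0.023 for all genes.

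**Figure D1:**
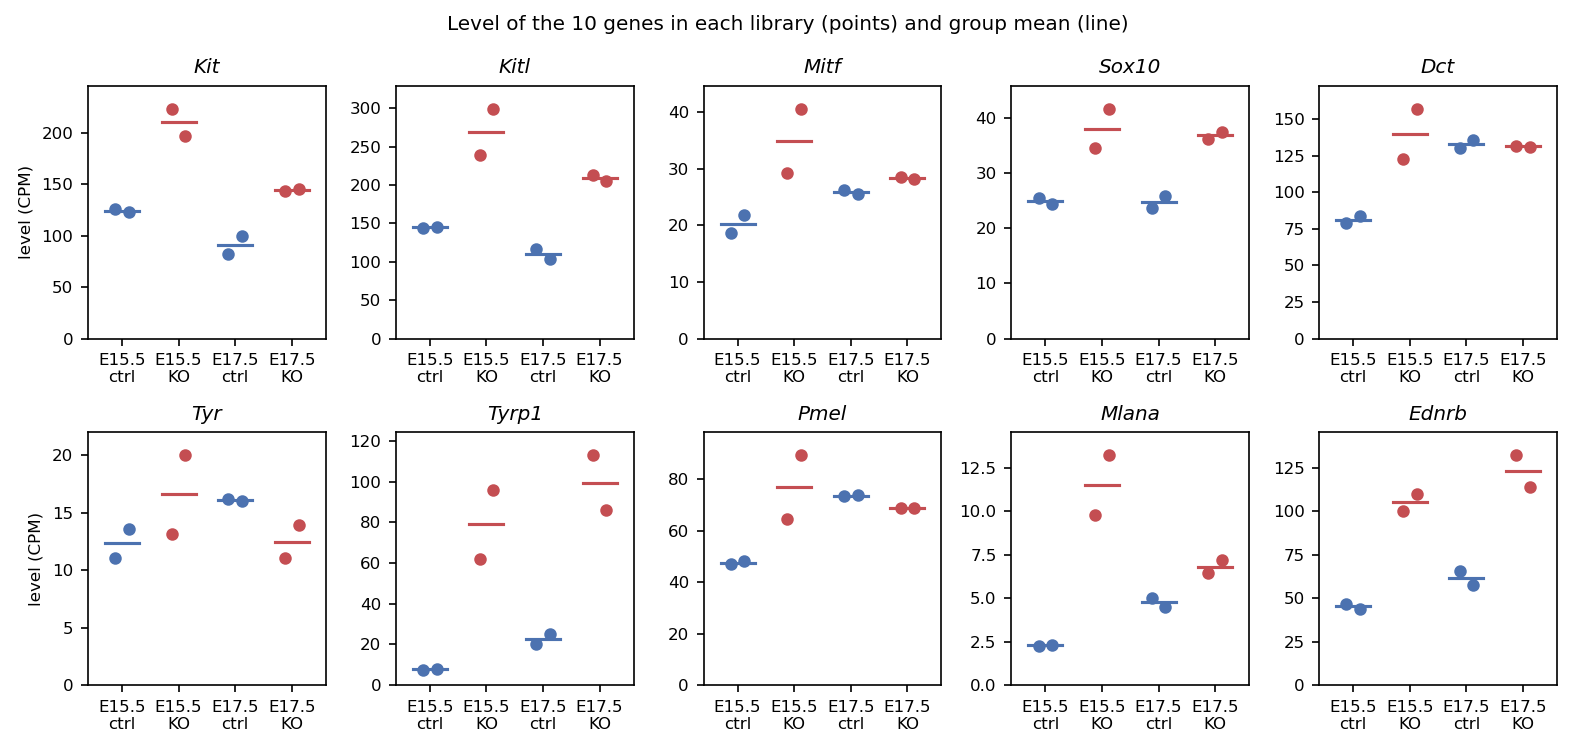
Level of each of the 10 genes in CPM (vertical axis, from 0) in the 4 groups, control in blue and knockout in red, with 1 point per library and a line at the mean of 2 libraries. Tyrp1 goes from 7.4 and 7.99 CPM in E15.5 controls to 62.1 and 96.1 CPM in E15.5 knockouts, while Dct is at 130 to 136 CPM in both groups at E17.5.

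Kitl, the ligand, lies on chromosome 10 from 100015615 to 100100416 (GRCm38.p6). It stood at 144 and 145 CPM in E15.5 controls and at 239 and 299 CPM in E15.5 knockouts, which is 0.89 ± 0.12 on the log2 scale (n = 2 per group, edgeR adjusted p = 1.1e-04). The E17.5 controls were at 117 and 103 CPM and the knockouts at 213 and 205 CPM (0.93 ± 0.12, adjusted p = 6.1e-05). All 4 knockout libraries were above all 4 control libraries. The effects at the 2 stages differed by 0.04 ± 0.17 (adjusted p = 0.95). The rise went with a fall of the basal keratinocyte markers, whose summed level went from 7120 to 7580 CPM in E15.5 controls down to 1970 to 2050 CPM in knockouts, and from 7680 to 7710 down to 1150 to 1190 CPM at E17.5. It also went with a rise of dermal fibroblast markers, summed to 31400 to 33300 CPM in E15.5 controls and 77600 to 96100 CPM in E15.5 knockouts, and to 27200 to 31400 and 98400 to 104000 CPM at E17.5. The part of these cell types in the Kitl change was not tested. Only 1 Kitl transcript was counted, so the forms with and without the exon at which membrane-bound Kit ligand is cut are not separated.

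Kit, the receptor of Kit ligand (chromosome 5, 75574987 to 75656722), rose at both stages. It stood at 126 and 123 CPM in E15.5 controls and at 223 and 197 CPM in E15.5 knockouts (0.76 ± 0.11, edgeR adjusted p = 1.9e-04). The E17.5 controls were at 82.2 and 99.2 CPM and the knockouts at 143 and 145 CPM (0.66 ± 0.11, adjusted p = 3.9e-04). The groups did not overlap at either stage, and the effects at the 2 stages differed by -0.09 ± 0.16 (adjusted p = 0.82). Kit is also made by mast cells, and mast cell markers were abundant in these libraries. Of 8 mast cell markers 6 rose at E15.5 and all 8 at E17.5, with medians of 0.98 and 1.39, where 23.2% and 26.7% of all genes rose. Their summed level went from 2320 to 2750 CPM in E15.5 controls up to 4660 to 5210 CPM in knockouts, and from 2140 to 2300 up to 4910 to 5230 CPM at E17.5. The mast cell proteases Tpsb2 (1.42 ± 0.12 and 1.51 ± 0.12 at the 2 stages) and Mcpt4 (1.15 ± 0.14 and 1.21 ± 0.13) and the histidine decarboxylase gene Hdc, which makes histamine (1.07 ± 0.16 and 1.62 ± 0.16), were among the risen. Fcer1a and Ms4a2, which encode chains of the high-affinity IgE receptor, were at 5.66 CPM or less in every library, and the Ms4a2 rise at E17.5 (1.28 ± 0.34, edgeR adjusted p = 0.0074) no longer passed without E17.5 control replicate 1 (1.08, 0.057) or knockout replicate 1 (1.06, 0.062). Blood progenitors make Kit too, and 6 of 7 erythroid and progenitor markers rose at each stage, with medians of 1.54 and 1.41. Their summed level was 2340 to 3300 CPM in E15.5 controls and 13800 to 22800 CPM in knockouts, and 944 to 1170 and 10700 to 12600 CPM at E17.5. Most of that sum was Hba-a1, a globin gene of maturing red cells, and without it the sum was 203 to 263 CPM in E15.5 controls and 853 to 1200 CPM in knockouts, and 173 to 212 and 737 to 827 CPM at E17.5. Most of this remainder was Alas2 and Cd34. At E15.5 Alas2 stood at 113 and 65.1 CPM in controls and 749 and 431 CPM in knockouts. Cd34 stood at 139 and 129 CPM in E15.5 controls and 389 and 390 CPM in E15.5 knockouts. The erythroid factor gene Gata1 was at 1.67 to 7.77 CPM over all libraries, and the erythropoietin receptor gene Epor at 2.03 to 5.48 CPM. Klf1, another erythroid factor gene, was below 1 CPM in every library and was the 1 marker that did not pass the test. The part of mast cells and blood progenitors in the Kit change was not tested.

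Ednrb, the endothelin receptor of melanoblasts (chromosome 14, 103814615 to 103844508), rose 2.31-fold at E15.5 and 1.99-fold at E17.5. At E15.5 it stood at 46.7 and 43.9 CPM in controls and 99.8 and 110 CPM in knockouts (1.21 ± 0.11, edgeR adjusted p = 7.2e-06). Its E17.5 levels were 65.6 and 57.4 CPM in controls and 132 and 114 CPM in knockouts (1.0 ± 0.11, adjusted p = 2.0e-05). All 4 knockout libraries were above all 4 control libraries, and the effects differed by -0.21 ± 0.16 (adjusted p = 0.55). Endothelial cells make Ednrb too, and all 8 endothelial markers rose at both stages, with medians of 0.64 and 0.80, among them the receptor kinase genes Tek (1.28 ± 0.13 and 1.44 ± 0.13) and Tie1 (0.62 ± 0.10 and 0.87 ± 0.10) and the cadherin gene Cdh5 (0.75 ± 0.10 and 0.85 ± 0.10). Their summed level was 500 to 507 CPM in E15.5 controls and 824 to 835 CPM in E15.5 knockouts, and 439 to 460 and 787 to 815 CPM at E17.5. Of all genes tested, 23.2% rose at E15.5 and 26.7% at E17.5. The part of endothelium in the Ednrb change was not tested.

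**Figure D2:**
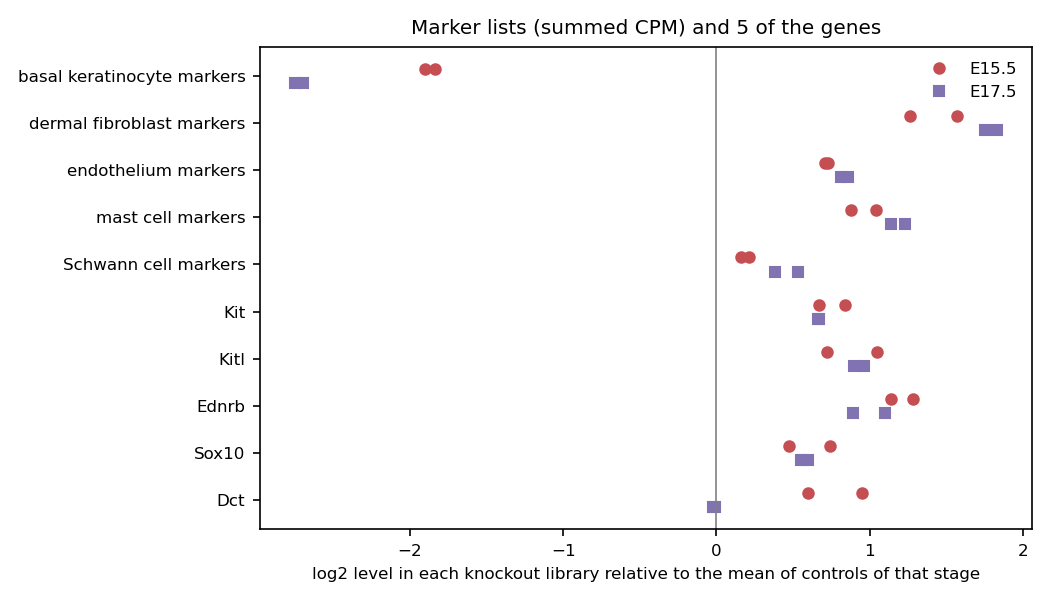
Level in each knockout library relative to the mean of the 2 controls of the same stage, on a log2 scale (horizontal axis), for the summed CPM of 5 marker lists and for 5 of the genes, with circles for E15.5 and squares for E17.5. Basal keratinocyte markers lie at -2.75 to -1.84 and mast cell markers at 0.88 to 1.23, with Kit at 0.66 to 0.84, Kitl at 0.72 to 1.05 and Dct at -0.02 to 0.95.

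Sox10, the neural crest transcription factor that Schwann cells share with melanocytes (chromosome 15, 79154913 to 79164490), rose at both stages, and its effects differed by -0.04 ± 0.17 (adjusted p = 0.94). It stood at 25.5 and 24.5 CPM in E15.5 controls and 34.6 and 41.7 CPM in knockouts (0.61 ± 0.12, edgeR adjusted p = 0.0018). Its E17.5 levels were 23.7 and 25.8 CPM in controls and 36.2 and 37.5 CPM in knockouts (0.57 ± 0.12, adjusted p = 0.0021), and the groups did not overlap. With library totals as the only scaling, which put the median of all genes at -0.235 at E17.5, the change there was 0.36 (adjusted p = 0.042). Of 9 Schwann cell markers 5 rose and 1 fell at E15.5, and 7 rose and 1 fell at E17.5, with medians of 0.57 and 0.89. Of all genes tested, 23.2% rose and 22.3% fell at E15.5, and 26.7% rose and 26.7% fell at E17.5. The myelin basic protein gene Mbp rose (0.50 ± 0.16 and 1.32 ± 0.16), while Erbb3, a neuregulin receptor gene that keratinocytes also express, fell (-0.58 ± 0.15 and -0.93 ± 0.16). The summed level of the list was 166 to 179 CPM in E15.5 controls and 192 to 199 CPM in knockouts, and 126 to 143 and 175 to 194 CPM at E17.5. Without Erbb3 it was 83.7 to 92.8 CPM in E15.5 controls and 137 to 142 CPM in knockouts, and 72.8 CPM in both E17.5 controls and 145 to 159 CPM in E17.5 knockouts. At E15.5 the Mbp rise no longer passed without control replicate 1 (0.46, edgeR adjusted p = 0.11) or 2 (0.54, 0.066) or knockout replicate 1 (0.44, 0.11), nor the Erbb3 fall without control replicate 2 (-0.39, 0.1) or knockout replicate 2 (-0.56, 0.0511). The part of Schwann cells in the Sox10 change was not tested.

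Mitf, the transcription factor that drives pigment genes (chromosome 6, 97807002 to 98021360), rose at E15.5, while neither its change at E17.5 nor the difference between the stages passed the test. It stood at 18.6 and 21.9 CPM in E15.5 controls and 29.2 and 40.6 CPM in knockouts (0.78 ± 0.16, edgeR adjusted p = 0.0017). The E17.5 levels were 26.3 and 25.5 CPM in controls and 28.5 and 28.3 CPM in knockouts (0.13 ± 0.15, adjusted p = 0.49). The difference of effects was -0.65 ± 0.22 (adjusted p = 0.14), and without E15.5 knockout replicate 1 it was -0.89 (adjusted p = 0.031). Mitf has several start sites, of which the one farthest downstream is that of the melanocyte form. The files count 3 Mitf transcripts, which GENCODE M21 starts at 97807058, 97929799 and 97991792, and whose counts are nearly equal in each library (494, 491 and 494 in E15.5 control replicate 1). The count of the transcript with the first of these starts minus that of the melanocyte-type start was 0 and -4 in E15.5 controls, 43 and 24 in E15.5 knockouts, -2 and -10 in E17.5 controls and 28 and 25 in E17.5 knockouts. All 4 knockout libraries were above 0 and all 4 control libraries at or below 0. No test was run on these differences. By GENCODE M21 these transcripts differ in more than their starts. The first holds 3122 exonic bases that the melanocyte-type one lacks, and the latter holds 162 that the first lacks. The differences are therefore no measure of start-site use alone. Which bases the authors counted for each transcript is not stated in the labels.

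Among the genes of pigment synthesis Tyrp1 had larger changes than Dct and Pmel at both stages and Mlana at E15.5, and Tyr did not pass the test. Dct, the dopachrome tautomerase gene (chromosome 14, 118012790 to 118052246), stood at 79 and 83.7 CPM in E15.5 controls and 123 and 157 CPM in knockouts (0.78 ± 0.12, edgeR adjusted p = 2.1e-04). The E17.5 controls were at 130 and 136 CPM and the knockouts at 132 and 131 CPM (-0.01 ± 0.11, adjusted p = 0.92). The knockout libraries of both stages and the E17.5 controls therefore lay in 1 range, above the E15.5 controls. The difference between the effects was -0.80 ± 0.16 (adjusted p = 0.018).

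Pmel, which encodes the protein of the melanosome's fibrils (chromosome 10, 128695888 to 128720238), had a like pattern. It stood at 46.9 and 48.4 CPM in E15.5 controls and 64.5 and 89.3 CPM in knockouts (0.69 ± 0.13, edgeR adjusted p = 0.0015). Without E15.5 knockout replicate 2 the log2 fold change was 0.44 (adjusted p = 0.015). The E17.5 controls were at 73.5 and 73.8 CPM and the knockouts at 69 and 68.9 CPM (-0.09 ± 0.13, adjusted p = 0.57). The difference of effects was -0.79 ± 0.19 (adjusted p = 0.041). An exon of Pmel overlaps one of Dgka on the opposite strand, and the strand setting of the counting is not given, so reads there cannot be told apart. Dgka stood at 74.6 to 83.7 CPM in controls and 20.3 to 24.9 CPM in knockouts, and its part in the Pmel values was not tested.

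Tyr, the rate-limiting enzyme gene of melanin synthesis (chromosome 7, 87424771 to 87493512), did not pass the test at either stage. It stood at 11.1 and 13.6 CPM in E15.5 controls and 13.2 and 20 CPM in knockouts, which overlap (0.43 ± 0.20, edgeR adjusted p = 0.11). Leaving out E15.5 knockout replicate 1 gave a change of 0.69 (adjusted p = 0.018). At E17.5 it stood at 16.2 and 16 CPM in controls and 11.1 and 13.9 CPM in knockouts (-0.36 ± 0.20, adjusted p = 0.15). With library totals as the only scaling the E17.5 change was -0.57 (adjusted p = 0.035), where the median of all genes was -0.235.

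Tyrp1, which encodes a melanosomal enzyme that stabilises tyrosinase (chromosome 4, 80834123 to 80851736), had the largest rise of the 10 genes at both stages. It stood at 7.4 and 7.99 CPM in E15.5 controls and 62.1 and 96.1 CPM in knockouts (3.36 ± 0.22, edgeR adjusted p = 4.6e-07). Its E17.5 levels were 20.2 and 24.9 CPM in controls and 113 and 86 CPM in knockouts (2.14 ± 0.20, adjusted p = 5.5e-06). The lowest knockout library was above the highest control library of either stage. The smaller effect at E17.5 (-1.23 ± 0.29, adjusted p = 0.036) went with a higher control level, while the knockout level did not change between stages by a margin that passed the test (0.33 ± 0.19, adjusted p = 0.33).

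Mlana, a melanosome membrane protein gene (chromosome 19, 29697541 to 29708447), rose 5.01-fold at E15.5. It stood at 2.26 and 2.3 CPM in controls (60 counts in each) and at 9.77 and 13.2 CPM in knockouts (2.33 ± 0.22, edgeR adjusted p = 7.3e-06). At E17.5 it stood at 5 and 4.5 CPM in controls and 6.43 and 7.19 CPM in knockouts, and the change lay at the threshold (0.52 ± 0.20, adjusted p = 0.0503). With the median-ratio size factors, the stricter filter or without E15.5 knockout replicate 1 the adjusted p was 0.0469, 0.0472 and 0.0486. The difference of effects was -1.81 ± 0.30 (adjusted p = 0.0058), and it passed the test in every alternative run.

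**Figure D3:**
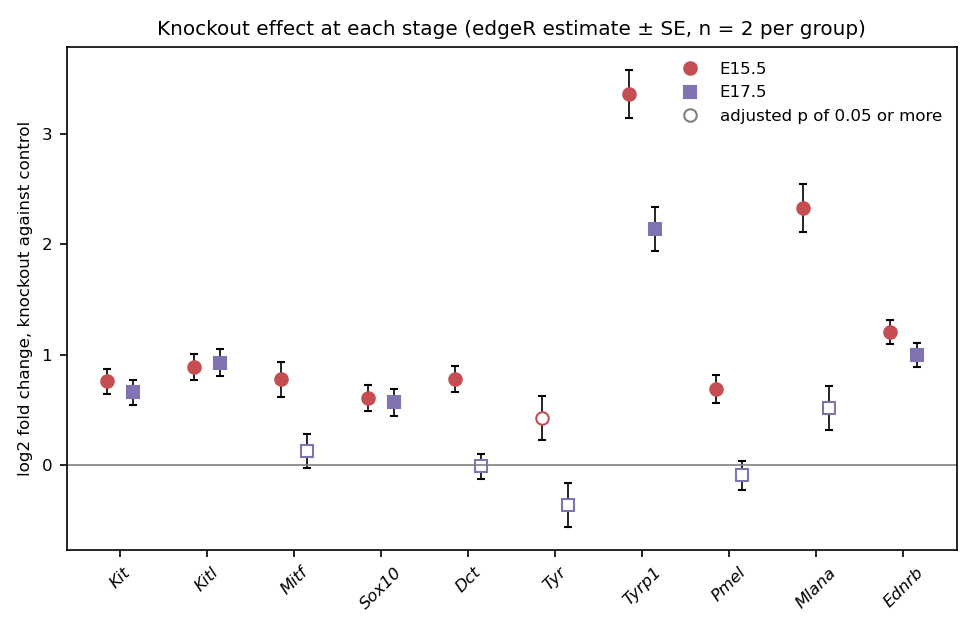
Log2 fold change of knockout against control (vertical axis) for each gene at E15.5 (circles) and E17.5 (squares), with bars of ± 1 SE from the edgeR fit of 2 libraries per group and open symbols for an adjusted p of 0.05 or more. Tyrp1 is at 3.36 and 2.14 and Mlana at 2.33 and 0.52, while the stage difference of Kit, Kitl, Sox10 and Ednrb lies between -0.21 and 0.04.

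Ratios within a library do not depend on how libraries are scaled, and they show the unequal change directly. Per read of Dct, Tyrp1 had 0.0936 and 0.0955 reads in E15.5 controls, 0.503 and 0.613 in E15.5 knockouts, 0.156 and 0.183 in E17.5 controls and 0.852 and 0.655 in E17.5 knockouts. For Mlana the ratios were 0.0287 and 0.0275, then 0.0792 and 0.084, then 0.0386 and 0.033, and 0.0486 and 0.0548 in the same order. The knockout ratios of these 2 genes lay above the control ratios of the same stage. So did those of Ednrb, at 0.809 and 0.7 against 0.59 and 0.525 at E15.5. At E17.5 its ratios were 0.997 and 0.866 against 0.506 and 0.421. Kitl did likewise, at 1.94 and 1.91 against 1.83 and 1.74, then 1.61 and 1.56 against 0.899 and 0.756. Sox10 was above at E17.5 (0.274 and 0.286 against 0.183 and 0.189) and below at E15.5 (0.28 and 0.266 against 0.322 and 0.292). Kit was above at E17.5 (1.08 and 1.1 against 0.634 and 0.727) and overlapped at E15.5. For Pmel the ratio stayed between 0.522 and 0.594 in all 8 libraries, and for Mitf between 0.187 and 0.262. Within that range Pmel was lower in the knockout at E15.5 (0.523 and 0.57 against 0.594 and 0.578). It was lower at E17.5 too (0.522 and 0.525 against 0.566 and 0.541). Mitf was higher in the knockout at E17.5 (0.216 and 0.216 against 0.203 and 0.187). Tyr had 0.107 and 0.128 reads per Dct read in E15.5 knockouts against 0.141 and 0.163 in controls, and 0.084 and 0.106 against 0.125 and 0.117 at E17.5, lower in the knockout at each stage. No test was run on these ratios.

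**Figure D4:**
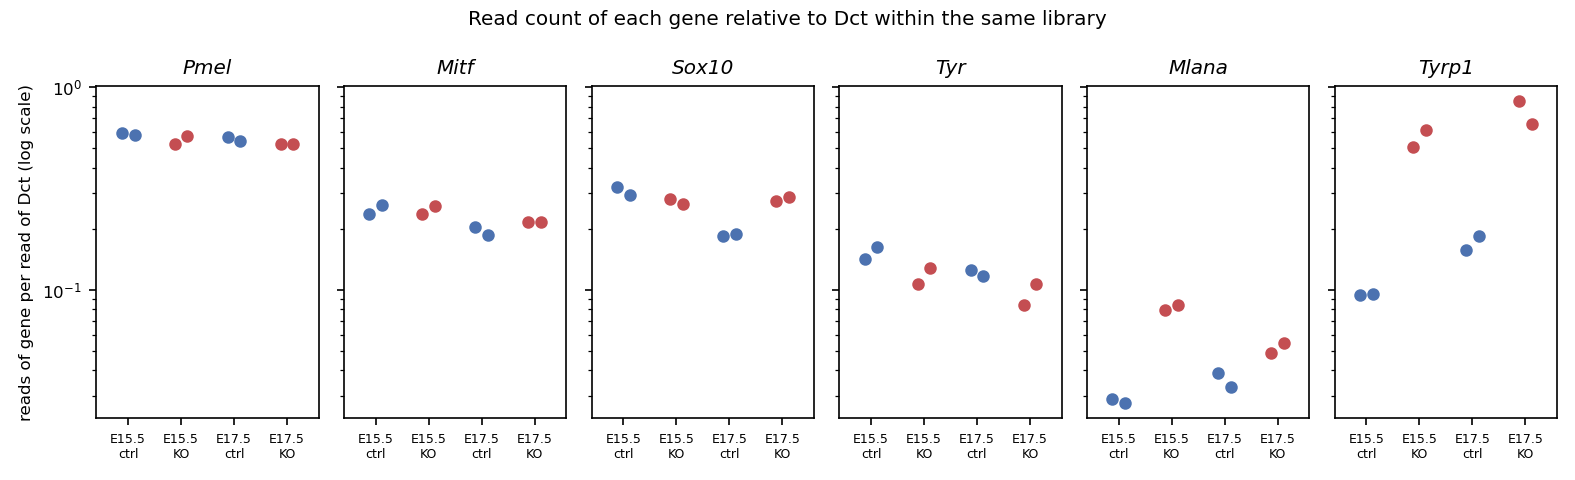
Reads of each gene per read of Dct in the same library (vertical axis, log scale) in the 4 groups, with 1 point per library, control in blue and knockout in red. Pmel keeps to 0.522 to 0.594 throughout, while Tyrp1 goes from 0.0936 and 0.0955 in E15.5 controls to 0.503 and 0.613 in E15.5 knockouts.

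Between E15.5 and E17.5, 4 pigment genes and Ednrb rose in control epidermis, and none of the 10 genes rose by the test in knockout epidermis. In controls 5 of the 10 genes rose and 1 fell, where 3.18% of all genes rose, 7.71% fell and 10.9% changed. Those that rose were Tyrp1 (1.55 ± 0.22, edgeR adjusted p = 0.0012), Mlana (1.05 ± 0.22, adjusted p = 0.011), Dct (0.71 ± 0.12, adjusted p = 0.0025), Pmel (0.63 ± 0.13, adjusted p = 0.012) and Ednrb (0.44 ± 0.11, adjusted p = 0.029), and Kit fell (-0.45 ± 0.11, adjusted p = 0.023). In knockouts 0 rose and 2 fell, Mlana (-0.75 ± 0.20, adjusted p = 0.027) and Kit (-0.55 ± 0.11, adjusted p = 0.0061), where 6.2% of all genes rose, 6.92% fell and 13.1% changed. The test of the difference between the knockout effects at the 2 stages, which is also the difference between these time courses, was passed by 4 of the 10 genes, Mlana, Dct, Tyrp1 and Pmel. All 4 had the smaller knockout effect at E17.5, where 2.47% of all genes had a lower effect by this test, 1.87% a higher and 4.34% either. These comparisons share their libraries with the knockout comparisons and are no independent evidence.

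Several of these calls were lost when 1 library was left out (edgeR adjusted p in parentheses). The log2 values then stayed within -0.84 to -0.63 for the Dct difference of effects, -1.28 to -0.89 for Tyrp1, -0.81 to -0.55 for Pmel and 1.04 to 1.06 for the Mlana rise in controls. The difference of effects for Dct no longer passed when E15.5 control replicate 1 (0.076) or 2 (0.0547), E15.5 knockout replicate 2 (0.0549), E17.5 control replicate 2 (0.056) or E17.5 knockout replicate 1 (0.062) was left out. The Tyrp1 difference was lost without E15.5 control replicate 1 (0.13) or 2 (0.1), E15.5 knockout replicate 2 (0.095), E17.5 control replicate 2 (0.12) or E17.5 knockout replicate 2 (0.085), and with limma-voom (0.089). The Pmel difference was lost without any single library other than E15.5 knockout replicate 1, with adjusted p from 0.073 to 0.13. Of the control time course, the Kit fall was lost without E15.5 control replicate 1 (0.1) or 2 (0.11) or E17.5 control replicate 1 (0.12), and with library totals as the only scaling (-0.26, 0.14). The Ednrb rise was lost without E15.5 control replicate 1 (0.081) or 2 (0.19) or E17.5 control replicate 1 (0.13), the Pmel rise without E15.5 control replicate 1 (0.073) or 2 (0.079) or E17.5 control replicate 2 (0.071), and the Mlana rise without E15.5 control replicate 1 (0.059) or 2 (0.076). In the knockout time course the Mlana fall was lost without E15.5 knockout replicate 2 (0.26) or E17.5 knockout replicate 1 (0.18) or 2 (0.074), and the Kit fall without E17.5 knockout replicate 1 (0.057). Without E15.5 knockout replicate 1, by contrast, the Tyr difference of effects passed the test (-1.07, 0.0454).

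Levels between genes were set side by side per kilobase of exon, with the exon lengths of GENCODE M21, which may differ from those the authors counted. In E15.5 controls Dct was the highest at 36.9 ± 1.48 CPM per kilobase (SD, n = 2), followed by Kitl at 25.6 ± 0.144, Kit at 23.8 ± 0.399, Pmel at 22.4 ± 0.478, Ednrb at 11.4 ± 0.481, Sox10 at 9.2 ± 0.264 and Mitf at 4.15 ± 0.47. Tyrp1 at 2.83 ± 0.154, Mlana at 2.52 ± 0.031 and Tyr at 2.05 ± 0.288 were the lowest, and no neighbours in this order overlapped in their libraries. The Mitf level was divided by the 4881 exonic bases of the transcript taken. The melanocyte-type transcript has 1921 bases and nearly equal counts (494 for each in E15.5 control replicate 1). The place of Mitf in the order therefore depends on the transcript chosen. In E17.5 knockouts Dct was again the highest at 59.8 ± 0.3, and Kitl (37 ± 1.08), Tyrp1 (36.5 ± 6.92) and Pmel (32.4 ± 0.0152) followed. Kitl and Tyrp1 overlapped there, as did Tyrp1 and Pmel. Tyr was the lowest there at 2.07 ± 0.329.

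Other genes of pigment cells went both ways. Of 15 further melanosome and pigment genes enriched in melanocytes, 14 were tested, of which 4 rose and 4 fell at E15.5 (median 0.26), and 3 rose and 6 fell at E17.5 (median -0.46). Mlph, which links melanosomes to their motor, rose (1.71 ± 0.14 and 1.51 ± 0.14, edgeR adjusted p = 3.0e-06 and 5.0e-06). Rab38, a small GTPase of melanosome cargo transport, fell (-2.32 ± 0.21 and -3.55 ± 0.24, edgeR adjusted p = 6.7e-06 and 3.9e-07). It stood at 69.3 and 73.2 CPM in E15.5 controls and 10.8 and 17.7 CPM in knockouts, and at 48.2 and 37.4 against 4.24 and 3.05 CPM at E17.5. The basal keratinocyte markers fell too, with medians of -1.91 and -3.44, and the part of cells other than melanocytes in the Rab38 change was not tested. The melanocyte channel gene Trpm1 fell at E17.5 (-1.60 ± 0.16, adjusted p = 6.7e-06). Its change at E15.5 (-0.43 ± 0.15, adjusted p = 0.034) had the opposite sign with summed transcripts (0.25, adjusted p = 0.15), and did not pass with DESeq2 (adjusted p = 0.057) or without any 1 of the 4 E15.5 libraries (adjusted p from 0.095 to 0.13). Oca2 and Gpnmb, named after their values were seen, rose at both stages. Oca2, a melanosomal transporter gene, stood at 0.0755 and 0.115 CPM in E15.5 controls (5 counts in all) and 3.04 and 4.54 CPM in knockouts (5.25 ± 0.50, adjusted p = 8.8e-06), and at 0.29 and 0.385 against 3.54 and 2.55 CPM at E17.5 (3.15 ± 0.41, adjusted p = 6.0e-05). Gpnmb, a melanosomal glycoprotein gene that macrophages also use, changed by 1.78 ± 0.27 (adjusted p = 2.8e-04) and 0.85 ± 0.26 (adjusted p = 0.016), the latter lost with library totals (0.64, adjusted p = 0.0521) and without E17.5 control replicate 1 (0.89, 0.0528) or 2 (0.81, 0.074) or knockout replicate 1 (0.60, 0.13). Mc1r, the receptor of melanocyte-stimulating hormone, changed by -0.10 ± 0.25 (adjusted p = 0.77) at E15.5 and -1.17 ± 0.25 (adjusted p = 0.0023) at E17.5. Of 20 melanosome biogenesis and transport genes that many cell types use, 3 rose and 3 fell at E15.5 and 5 rose and 3 fell at E17.5, with Rab27a at -1.78 ± 0.11 and -1.41 ± 0.11, Rab32 at 0.64 ± 0.13 and 1.06 ± 0.13 and Bloc1s3 at -0.95 ± 0.21 and -1.07 ± 0.22. Over all genes 45.5% changed at E15.5 and 53.4% at E17.5.

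Of 14 transcription factors of the melanoblast lineage besides Mitf and Sox10, 3 rose and 5 fell at E15.5 and 5 rose and 7 fell at E17.5 (medians -0.14 and -0.53), where 23.2% of all genes rose and 22.3% fell at E15.5 and 26.7% rose and 26.7% fell at E17.5. The smallest adjusted p-values at E15.5 were those of 3 factors that keratinocytes or hair placodes also use, all of which fell: Tfap2b (-3.55 ± 0.20 and -4.82 ± 0.22, edgeR adjusted p = 1.3e-07 and 1.6e-08), Lef1 (-3.09 ± 0.15 and -3.33 ± 0.15, adjusted p = 4.9e-08 and 1.8e-08) and Tfap2a (-2.71 ± 0.13 and -4.00 ± 0.14, adjusted p = 5.0e-08 and 3.9e-09). Pax3, which acts upstream of Mitf in melanoblasts, changed by -0.08 ± 0.20 (adjusted p = 0.77) at E15.5 and -1.65 ± 0.21 (adjusted p = 4.5e-05) at E17.5. It stood at 10.6 and 10.1 CPM in E17.5 controls and 2.92 and 3.67 CPM in E17.5 knockouts.

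Of 22 other ligands and receptors that act on melanoblasts, 21 were tested, of which 4 rose and 10 fell at E15.5 and 6 rose and 10 fell at E17.5 (medians -0.10 and -0.43). Over all genes 23.2% rose and 22.3% fell at E15.5, and 26.7% rose and 26.7% fell at E17.5. Edn3, the ligand of Ednrb in melanoblasts, stood at 14.6 and 15.2 CPM in E15.5 controls and 8.96 and 12.1 CPM in knockouts (-0.50 ± 0.19, edgeR adjusted p = 0.0481), and at 18.1 and 13.4 against 11 and 12.4 CPM at E17.5 (-0.43 ± 0.19, adjusted p = 0.072). The Edn3 fall at E15.5 lies at the threshold and no longer passed with library totals (-0.49, adjusted p = 0.06), the stricter filter (-0.48, 0.057) or summed transcripts (-0.51, 0.0537), nor without E15.5 control replicate 1 (-0.53, 0.11) or 2 (-0.47, 0.16), E15.5 knockout replicate 1 (-0.31, 0.3) or E17.5 knockout replicate 1 (-0.50, 0.0543) or 2 (-0.50, 0.056). At E17.5 it passed with library totals (-0.64, 0.014), without E15.5 knockout replicate 1 (-0.45, 0.0493) and without E17.5 control replicate 2 (-0.63, 0.025). The placode Wnt gene Wnt10b (-4.07 ± 0.20 and -2.95 ± 0.19, adjusted p = 6.1e-08 and 2.2e-07) and the chemokine receptor gene Cxcr4 (-1.95 ± 0.14 and -2.10 ± 0.13, adjusted p = 7.4e-07 and 2.3e-07) fell. Cxcl12, the ligand of Cxcr4, rose (0.97 ± 0.10 and 1.52 ± 0.10, adjusted p = 1.3e-05 and 2.8e-07). Adamts20, a protease of melanoblast survival in skin, fell (-0.62 ± 0.16 and -0.92 ± 0.16, adjusted p = 0.0088 and 5.5e-04), though not by the test at E15.5 without knockout replicate 1 (-0.43, 0.082).

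Of 22 genes that carry the Kit signal, 8 rose and 3 fell at E15.5 and 8 rose and 5 fell at E17.5, with medians of 0.13 and 0.20. These shares lie near those of all genes, of which 45.5% changed at E15.5 and 53.4% at E17.5. Lyn, a Src-family kinase of mast cells and other blood cells, rose (0.94 ± 0.11 and 1.41 ± 0.11, edgeR adjusted p = 2.9e-05 and 9.5e-07). Hras (-1.06 ± 0.13 and -0.88 ± 0.13, adjusted p = 5.4e-05 and 1.6e-04) and the survival gene Bcl2 (-0.56 ± 0.12 and -0.88 ± 0.12, adjusted p = 0.0021 and 6.5e-05) fell. Of 7 proteases that can cut Kit ligand from the membrane, 5 rose and 0 fell at each stage (medians 0.90 and 0.97), where 23.2% and 26.7% of all genes rose. Adam8 (1.68 ± 0.18 and 2.72 ± 0.18, adjusted p = 2.0e-05 and 3.5e-07), Adam9 (0.74 ± 0.10 and 1.21 ± 0.10, adjusted p = 1.2e-04 and 1.9e-06) and Mmp9 (1.46 ± 0.47 and 3.73 ± 0.49, adjusted p = 0.026 and 6.3e-05) were among them. Mmp9 at E15.5 no longer passed without control replicate 1 (1.13, 0.16) or knockout replicate 1 (1.01, 0.18). Adam17 (-0.18 ± 0.10 and 0.16 ± 0.10, adjusted p = 0.17 and 0.21) and Adam10 (0.10 ± 0.10 and 0.03 ± 0.10, adjusted p = 0.44 and 0.79) did not pass the test. The list shares the mast cell protease gene Cma1 with the mast cell markers.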

How the data were processed

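Per the labels' design text, epidermal RNA was extracted with Trizol, Illumina reads were aligned to mm10 by TopHat2, HOMER gave the counts, and the authors called changed genes in edgeR. The deposited values are raw read counts per RefSeq transcript. HOMER's version and strand setting are not given in the sources read. Of 30521 transcripts, 29144 were named from RefSeq (GRCm38.p6) and 177 from GENCODE M21. The 1200 unnamed transcripts held 3.14% of counts (1.8% to 4.64% per library, higher in the knockouts) and were left out. Each gene was represented by its transcript with the largest total, and summing was an alternative. The joined table of each stage repeats these counts (0 values differ) and was left aside. Libraries held 25223874 to 28892685 gene counts.

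Counts were tested with edgeR 4.0.16 in R 4.3.3 (filterByExpr, TMM, quasi-likelihood fit of 1 mean per group to all 8 libraries, threshold 0.05, 16341 genes). The step was run on simulated counts in which far fewer genes changed than are called here. That run therefore does not test the scaling of these data. Each SE was taken as |log2 fold change| over the square root of the F statistic. Alternatives were median-ratio size factors, library totals, DESeq2 1.42.0, limma-voom 3.58.1, no filter, a mean count of at least 50, only the groups compared, a replicate block, summed transcripts and leaving out each library. The labels do not say whether replicates are separate embryos, so the p-values reflect only how far these samples vary, possibly for technical reasons. The genes and lists were chosen with earlier results of these data known. Besides the 10 genes, up to 3 called genes with the smallest adjusted p were named per list, and others (Fcer1a, Ms4a2, Erbb3, Oca2, Gpnmb, Mc1r, Pax3, Edn3, Adamts20, Adam10, Adam17) were chosen after their values were seen. Some genes that the rules would name are not reported here.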

Additional observations from a re-analysis of the deposited data

Results flagged for a closer look

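For 4 of the 10 genes the knockout effect at E17.5 differed from that at E15.5 by the test of the difference itself (edgeR, adjusted over all genes). On the log2 scale the effect at E17.5 minus that at E15.5 was -1.81 for Mlana, -1.23 for Tyrp1, -0.80 for Dct and -0.79 for Pmel. In all 4 the control level was higher at E17.5 than at E15.5. The call of Mlana held without each single library, and those of the others did not.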

How the results depend on the processing

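Over the alternatives, the 9 rises at E15.5 and the 5 at E17.5 kept their direction and their side of the threshold, and 9 to 10 and 5 to 6 of the 10 genes rose when a library was left out. With library totals as the only scaling, 1 gene (Tyr) fell at E17.5, and 0 fell in the control time course, where DESeq2 and limma-voom called 2 (Kit and Kitl). Leaving out a library gave 1 to 6 genes with a lower effect at E17.5 than at E15.5, 2 to 5 risen and 0 to 2 fallen in the control time course, and 0 to 5 fallen in the knockout time course. Over all genes, the difference of effects was called higher for 306 and lower for 403, against 140 and 655 with library totals and 509 higher with DESeq2, and 119 to 350 and 255 to 391 when a library was left out. The control time course had 519 risen and 1260 fallen genes, against 1483 and 759 with library totals, and 180 to 520 and 492 to 1251 when a library was left out. The knockout time course had 1013 and 1130, with 452 to 1078 and 712 to 1177 when a library was left out. Where the cause is not the number of libraries, the cause was not tested. Trpm1 at E15.5, called as fallen, was 0.2512 with summed transcripts. The other signs that turned were of values that had not passed the test. With library totals these were Adam17 (-0.0527) and Adam10 (-0.1784) at E17.5, Mitf at E17.5 (-0.0786), the Kitl difference of effects (-0.1841) and the Sox10 control time course (0.1791), the last also with no filter (0.0018) and with only the groups compared (0.0049). Leaving out a library gave -1.9181 to 0.6722 for Fcer1a, -0.2633 to 0.7515 for Ms4a2, -0.2449 to 0.0266 for Mc1r and -0.2137 to 0.0482 for Pax3 at E15.5, -0.0435 to 0.0833 for Adam10 at E17.5, -0.0521 to 0.0204 for Dct at E17.5, -0.2236 to 0.0474 for the Kit, -0.1336 to 0.1870 for the Kitl and -0.1799 to 0.0852 for the Sox10 difference of effects, -0.0758 to 0.0478 for Sox10 in the control time course, and -0.1808 to 0.0841 for Sox10, -0.2551 to 0.0860 for Dct and -0.3764 to 0.0887 for Pmel in the knockout time course. Of 816 counts of risen or fallen list members under alternatives, 22 moved by over 1.5 times. A left-out library leaves a group with 1 sample, which is assumed to vary like the others. The labels state no pairing of the replicates. Deviations of same-numbered libraries correlated at -0.07 to 0.04 over all genes tested, which cannot exclude a pairing that acts weakly or on few genes. With the replicate block 9 of the 10 genes rose at E15.5 and 5 at E17.5. In that fit 4 passed the difference of effects, and 5 rose and 1 fell in the control time course. Of the other genes named, the block ended 1 call, that of Edn3 at E15.5 (-0.50, edgeR adjusted p = 0.059).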

Other observations

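Genes whose log2 CPM followed Kit, Kitl or Dct most closely over the 8 libraries were taken from 13123 genes whose log2 CPM averaged at least 1 (predicted and clone-named genes left out), by Pearson correlation and as a description only. For Kit they included Mterf2 (0.991), the endothelial gene Emcn (0.982), Cdr2 (0.980) and the collagen gene Col8a2 (0.977). For Kitl they were the collagen gene Col24a1 (0.990), the histone acetyltransferase gene Kat6b (0.988), Zc3h7a (0.986), the lymphatic chemokine gene Ccl21a (0.986) and Megf10 (0.986). For Dct they were Sra1 (0.990), Calhm5 (0.960), the R-spondin gene Rspo3 (0.953), the growth hormone receptor gene Ghr (0.936) and the phosphatase gene Dusp8 (0.932). A correlation of at least 0.95 was reached by 39 genes for Kit, 210 for Kitl and 3 for Dct. The libraries share genotype and stage, which set most of these values.

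Among the 10 genes themselves Dct and Pmel correlated at 0.98 over the 8 libraries, Tyrp1 and Ednrb at 0.98 and Kit and Kitl at 0.91. Mitf and Mlana (0.94) and Kitl and Sox10 (0.92) correlated more closely than Kit and Kitl. Tyr correlated at 0.72 with Pmel and at 0.09 with both Kitl and Ednrb.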
